A study of Mus musculus with 18 samples.

Results

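The 10 genes described here mark natural killer (NK) cells and other cytotoxic lymphocytes: the granule genes Gzma, Gzmb, Prf1 and Nkg7, the NK receptor genes Ncr1, Klrb1c, Klrd1 and Klrk1, and the transcription factor genes Eomes and Tbx21. They were chosen by symbol, and all 10 were listed in each of the authors' deposited tables of DESeq2 results, among 21830 genes for spleen and 14423 for bone marrow (22476 different genes in all). Expression had been measured by QuantSeq, a 3' mRNA method in which a transcript gives a tag near its polyadenylated end, so that counts do not scale with transcript length. In spleen, 5 libraries from dKO recipients of Cgas-/- marrow were compared with 5 from dKO recipients of dKO marrow, all taken 12 weeks after lethal irradiation and transplantation. In bone marrow, 4 Cgas-/- libraries were compared with 4 dKO libraries from untransplanted mice. There was no wild-type group, so which genotype changed cannot be told. The mice were C57BL/6, and the labels give neither age nor sex. Cgas-/- cells lack the DNA sensor cGAS and keep TREX1 and STING. The dKO genotype is Trex1-/-;Sting1gt/gt, without the exonuclease TREX1 and with the goldenticket allele of the cGAMP receptor gene Sting1, and both kinds of marrow entered recipients whose remaining host cells were dKO. No value per library was used here, the depth of the libraries is unknown, and the standard errors of the deposited fits carry the spread between libraries.

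NK cells and cytotoxic T cells kill by releasing granules, in which perforin opens the target's membrane to granzyme proteases. NK cells weigh activating receptors against inhibitory ones that read MHC class I, a family of surface proteins induced by interferon, and type I interferon is itself a known activator of NK cells. The T-box factors Eomes and T-bet drive the maturation of NK cells and the effector genes of CD8 T cells. The series title states the question of cGAMP passing between cells in Trex1 deficiency, and these genes show how far the transcripts of cytotoxic cells differed with the genotype of marrow.

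The genotype labels were checked first. Trex1 was higher with Cgas-/- marrow in spleen (log2 fold change 2.71 ± 0.199, standard error as throughout) and in Cgas-/- bone marrow (1.45 ± 0.178) by the authors' deposited tables, with DESeq2 adjusted p-values of 8.48e-39 and 7.93e-13. Cgas was lower in spleen (-0.92 ± 0.217) and in bone marrow (-1.13 ± 0.155) by the authors' deposited tables, with DESeq2 adjusted p-values of 0.0176 and 6.99e-10. With Benjamini-Yekutieli adjustment Cgas did not pass in spleen (adjusted p = 0.186). Tags outside the deleted parts can still be counted, so remaining Trex1 and Cgas signal in the deleted genotype checks nothing further.

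The cytotoxic genes were present in both tissues, with a different make-up in each. In spleen the most abundant was Gzma, which encodes a granzyme with trypsin-like specificity, with a mean normalized count of 698 in the authors' deposited table. Klrd1 (336), which encodes the CD94 partner of NKG2 receptors, and Nkg7 (330), a granule membrane protein gene needed for degranulation, followed in the authors' deposited table of spleen. Next in that deposited table came Tbx21 (214), Prf1 (177), Klrb1c (159), Klrk1 (114), Eomes (78.1), Ncr1 (54.6) and Gzmb (38.4), as the authors' means over all 10 libraries. In bone marrow Nkg7 stood alone at 524, and the rest lay between 91.2 for Klrd1 and 7.99 for Gzmb in the authors' deposited table. Between these came Klrk1 (85.5), Gzma (75.0), Klrb1c (56.1), Eomes (27.8), Tbx21 (19.7), Prf1 (17.5) and Ncr1 (15.3), in the authors' deposited table. As a share of the summed means of the 10 genes, Nkg7 held 15.0% in spleen and 57.0% in bone marrow, and Gzma held 31.7% in spleen and 8.15% in bone marrow. Which cells gave the Nkg7 tags of bone marrow was not tested, so its share there need not be that of cytotoxic cells. The tables were normalized separately, so these shares, and not the levels, are set across tissues, with no replicate error and no test. All 10 genes had a mean of at least 20 in spleen and 6 did in bone marrow, where Tbx21, Prf1, Ncr1 and Gzmb were below it.

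**Figure D1:**
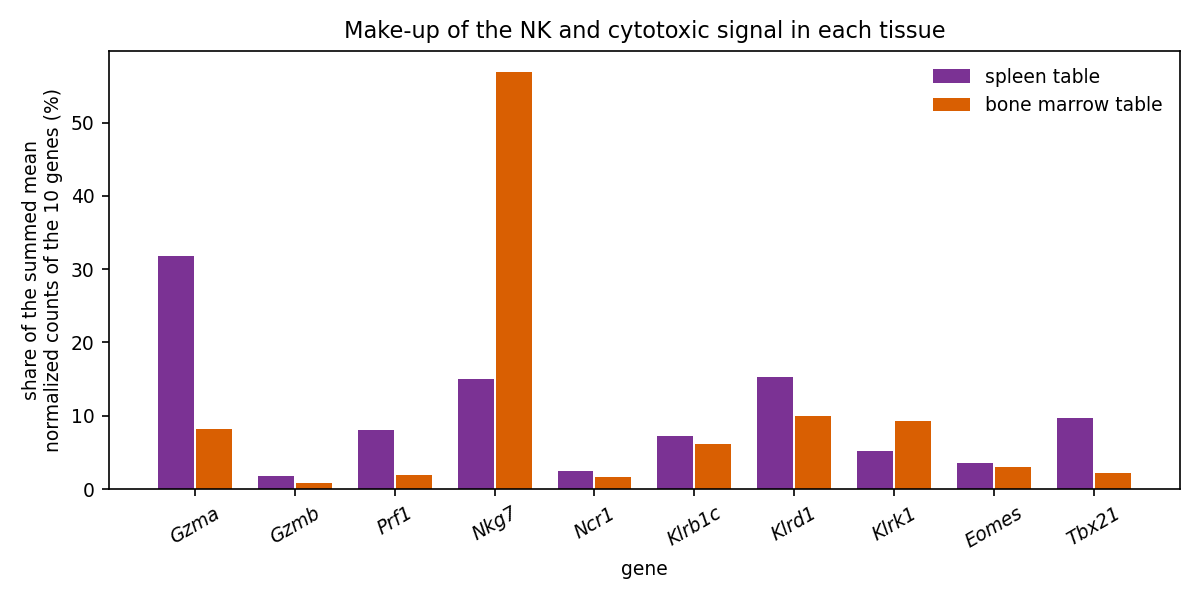
Share of the summed mean normalized counts of the 10 NK and cytotoxic genes (%, vertical axis) held by each gene in the spleen and the bone marrow table, as means over all libraries of a table with no error bars. Gzma is the tallest bar of spleen at 31.7% and Nkg7 that of bone marrow at 57.0%.

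On GRCm38 (GENCODE M21), 3 receptor genes lie within 0.845 Mb of chromosome 6, in the NK gene complex. Klrb1c is at 128778485 to 128789215 on the minus strand, Klrd1 at 129591782 to 129598775 on the plus strand and Klrk1 at 129610323 to 129623864 on the minus strand, 11.5 kb from Klrd1. Klrb1c overlaps Gm44511 on the same strand, and its value is uncertain to that extent. Ncr1 (4337724 to 4345164) and Nkg7 (43437073 to 43438249) are both on chromosome 7. Gzma is on chromosome 13 at 113093825 to 113100981, Gzmb on chromosome 14 at 56258838 to 56262260, Prf1 on chromosome 10 at 61297833 to 61304680 and Tbx21 on chromosome 11 at 97098071 to 97115331. Eomes lies on chromosome 9 at 118478212 to 118486132, 9.42 Mb from Trex1. Cgas is on the same chromosome, at -30.6 Mb relative to Trex1. Windows of 10 Mb around each thus leave part of the stretch between them uncovered. Within 10 Mb of Trex1, 16 genes were called in spleen and 14 in bone marrow in the authors' deposited tables, Eomes not among them.

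In spleen, the genotype of the marrow made no difference past the test in any of the 10 genes. Most of the values lay a little below 0, with 8 of 10 genes below 0 and a median of -0.16 (log2). The authors' deposited table listed 0 of the 10 under a DESeq2 adjusted p of 0.05, where 0.133% of all 21830 genes passed, and every member's adjusted p was 0.999997. At an unadjusted p under 0.05, 1 of the 10 (Klrb1c, lower) was listed, against 3.02% of all genes and 1.85% lower. The median over all genes of that table was -0.03, and 48.0% of genes with a mean of at least 20 lay below 0. The intervals were narrow: for all 10 genes the 95% interval of the fold change lay within 2-fold either way, with bounds from -0.81 to 0.64 on the log2 scale. These intervals are normal intervals from the deposited standard errors, and libraries of a group are not stated to be from separate mice, so they measure only the spread between these libraries, which may be technical. In RNA from whole suspensions, fewer cells of a type and less RNA per cell cannot be told apart.

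The granule genes in spleen lay near 0. Gzma was at -0.16 ± 0.237 in the authors' deposited table, which corresponds to group means of about 660 with Cgas-/- marrow and 737 with dKO marrow. Prf1, which encodes perforin, was at -0.08 ± 0.173 in the authors' deposited table, about 172 with Cgas-/- marrow and 182 with dKO marrow. Group means are worked out here from the deposited mean and fold change, for groups of equal size, and have no spread of their own. Gzmb, whose product cleaves after aspartate and activates caspases, had 0.12 ± 0.265 in the authors' deposited table, about 40.0 with Cgas-/- marrow and 36.8 with dKO marrow. Nkg7 was at -0.20 ± 0.150 in the authors' deposited table, about 307 with Cgas-/- marrow and 353 with dKO marrow. Thus 3 of 4 lay below 0, and each interval included 0.

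The 4 receptor genes in spleen all lay below 0. Klrb1c, which encodes the NK1.1 antigen of C57BL/6 NK cells, was at -0.34 ± 0.130 in the authors' deposited table, with an unadjusted p of 0.00909, the 131st smallest of the table. Its group means were about 140 with Cgas-/- marrow and 178 with dKO marrow, and the 95% interval, -0.60 to -0.08, did not include 0. It did not pass after adjustment (DESeq2 adjusted p = 0.999997, authors' deposited table). Klrk1, the gene of the activating receptor NKG2D, was at -0.20 ± 0.165 in the authors' deposited table, about 106 with Cgas-/- marrow and 122 with dKO marrow. Ncr1, which encodes the activating receptor NKp46, had -0.25 ± 0.287 in the authors' deposited table, about 49.9 with Cgas-/- marrow and 59.3 with dKO marrow. Klrd1 had -0.05 ± 0.121 in the authors' deposited table and the tightest error of the 10, about 331 with Cgas-/- marrow and 342 with dKO marrow. The intervals of Klrk1, Ncr1 and Klrd1 included 0.

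The T-box genes lay on either side of 0. Tbx21, which encodes T-bet, was at 0.02 ± 0.147 in the authors' deposited table of spleen, about 216 with Cgas-/- marrow and 213 with dKO marrow. Eomes was at -0.17 ± 0.179 in the authors' deposited table, about 73.6 with Cgas-/- marrow and 82.6 with dKO marrow. Neither had an unadjusted p under 0.05.

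**Figure D2:**
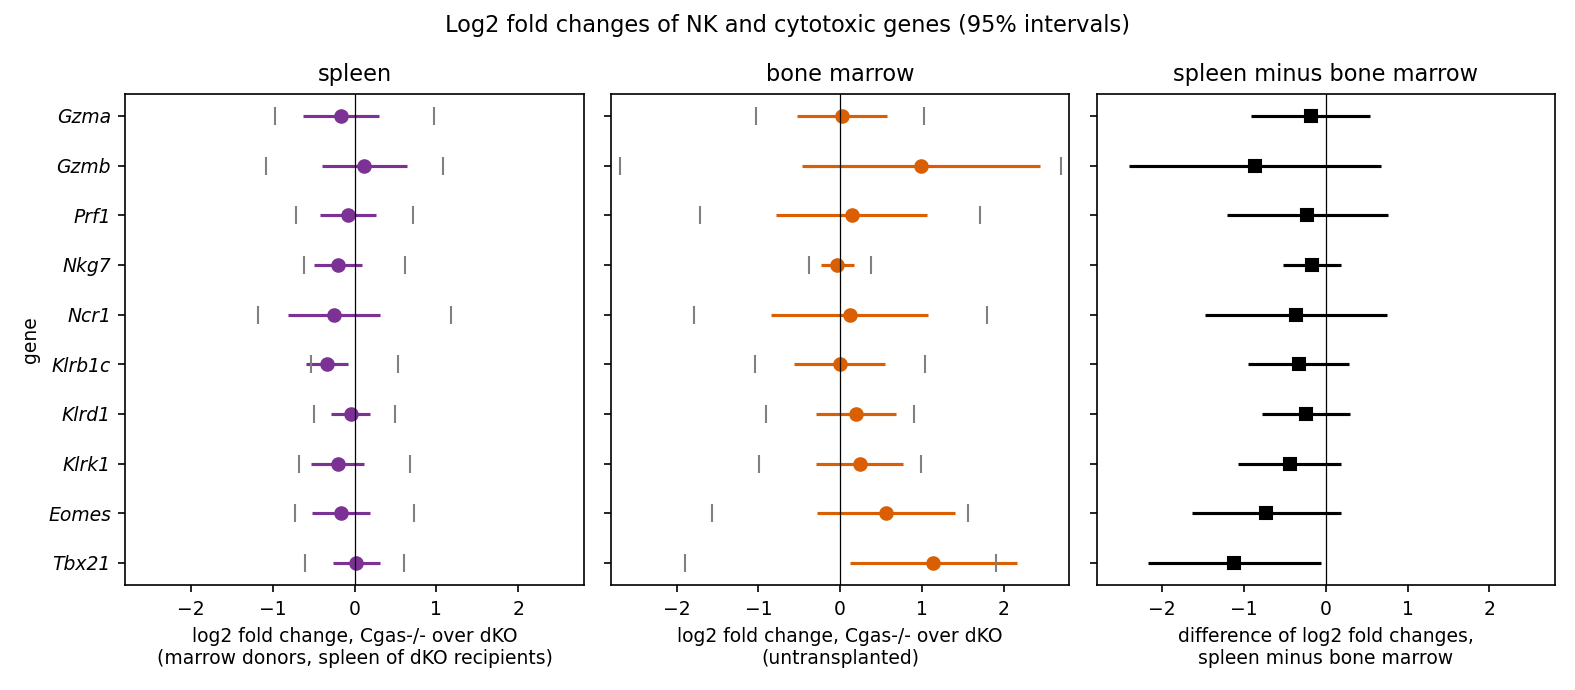
Log2 fold changes of the 10 genes, Cgas-/- over dKO, in spleen (left) and bone marrow (middle), and the difference spleen minus bone marrow (right), with points for estimates and lines for 95% intervals. Grey ticks mark the change that would have passed the adjusted threshold at each gene's standard error, and no point lies beyond its ticks; all 10 squares on the right lie below 0.

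In bone marrow the values leaned the other way, again with no gene past the test. Of the 10, 8 lay above 0, the median was 0.17 (log2), and the highest were those of the T-box genes and Gzmb. The authors' deposited table listed 0 of the 10 under a DESeq2 adjusted p of 0.05, where 0.534% of 14423 genes passed, and the members' adjusted p-values ran from 0.475 to 0.9997. At an unadjusted p under 0.05, 1 of the 10 (Tbx21, higher) was listed, against 8.85% of all genes and 4.19% higher. Over all genes of that table the median was -0.00230, and 50.5% lay below 0. The median of the members came to 0.11 over the 6 genes with a mean of at least 20. The mean over all 10, weighted by precision, was 0.08. Nkg7 weighs most in it, with a standard error of 0.104 against 0.247 to 0.740 for the others. The intervals were wider than in spleen for 9 of the 10 genes and narrower for Nkg7, and for 5 of the 10 genes they lay within 2-fold either way.

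Tbx21 had the largest value of the 10 in bone marrow. It was at 1.14 ± 0.521 in the authors' deposited table, a 2.20-fold difference with an unadjusted p of 0.0288 and a DESeq2 adjusted p of 0.475. That corresponds to about 27.1 in Cgas-/- marrow and 12.3 in dKO marrow, so it rests on few tags, and its 95% interval ran from 0.12 to 2.16. Eomes had 0.56 ± 0.430 in the authors' deposited table, about 33.1 in Cgas-/- marrow and 22.5 in dKO marrow. At these standard errors Tbx21 would have needed a 3.73-fold difference and Eomes a 2.97-fold difference to reach the largest p that was called, 2.67e-04.

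Among granule genes in bone marrow, Nkg7 was measured most precisely, at -0.03 ± 0.104 in the authors' deposited table, about 518 in Cgas-/- marrow and 531 in dKO marrow. Its 95% interval ran from -0.24 to 0.17. Gzma had 0.03 ± 0.282 in the authors' deposited table, about 75.7 in Cgas-/- marrow and 74.3 in dKO marrow. Prf1 had 0.14 ± 0.469 in the authors' deposited table, about 18.4 in Cgas-/- marrow and 16.7 in dKO marrow. Gzmb was at 0.99 ± 0.740 in the authors' deposited table, about 10.6 in Cgas-/- marrow and 5.36 in dKO marrow, with an interval from -0.46 to 2.44. At that standard error Gzmb would have needed a 6.48-fold difference to pass.

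The receptor genes in bone marrow lay near 0. Klrk1 had 0.24 ± 0.272 in the authors' deposited table, about 92.5 in Cgas-/- marrow and 78.4 in dKO marrow. Klrd1 had 0.19 ± 0.247 in the authors' deposited table, about 97.3 in Cgas-/- marrow and 85.1 in dKO marrow. Ncr1 (0.12 ± 0.491) and Klrb1c (-0.01 ± 0.285) were closer still to 0 in the authors' deposited table. Klrb1c, the member with the smallest p in spleen, was thus the member with the largest p in bone marrow, 0.979.

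**Figure D3:**
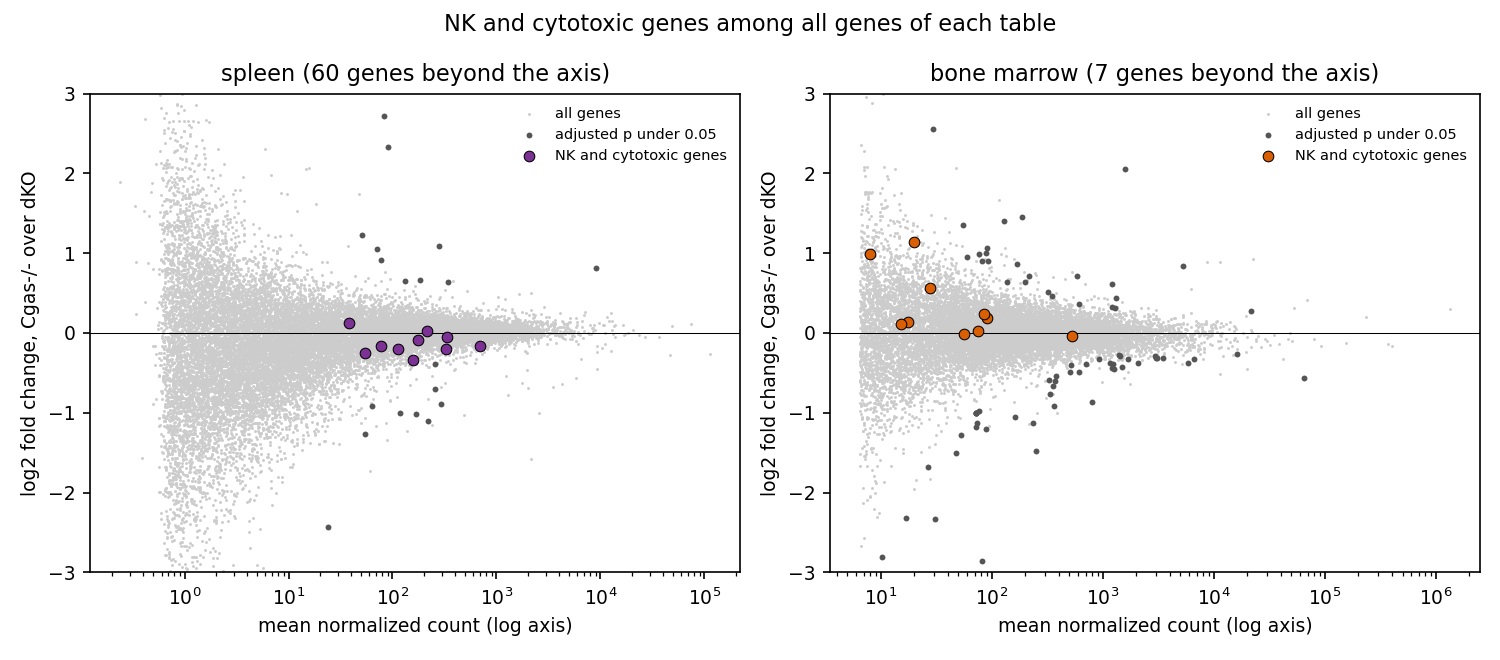
Log2 fold change, Cgas-/- over dKO (vertical axis), against mean normalized count (horizontal log axis) for all genes of the spleen table (left) and the bone marrow table (right), with called genes in dark grey and the 10 NK and cytotoxic genes as large outlined points. The 10 points lie inside the cloud of uncalled genes in both panels, and 60 genes of spleen and 7 of bone marrow lie beyond a log2 value of 3 and are not drawn.

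The difference between the spleen and the bone marrow comparison was then tested gene by gene. Spleens came from irradiated, transplanted recipients and bone marrow from untransplanted mice. The part of the tissue in this difference thus cannot be told apart from that of transplantation. All 10 genes had a lower log2 fold change in spleen than in bone marrow, and 6 of them were below 0 in spleen and above 0 in bone marrow. No member passed an adjusted p of 0.05 (0 of 10) in this z test with Benjamini-Hochberg adjustment over 13777 genes, of which 0.0581% did, and 1 (Tbx21) had an unadjusted p under 0.05, against 4.8% of all genes. The largest difference was that of Tbx21, -1.12 ± 0.542 (spleen 0.02, bone marrow 1.14; adjusted p = 0.990). Eomes followed with -0.73 ± 0.466 among the T-box genes, and Gzmb had -0.87 ± 0.786. The smallest differences were those of Nkg7 (-0.17 ± 0.182) and Gzma (-0.19 ± 0.369). Over all genes listed for both tissues the difference was below 0 for 52.5%, with a median of -0.01, and 24.6% were below 0 in spleen and above 0 in bone marrow. Genes of the same cells vary together across libraries, so the 10 signs are not 10 independent observations.

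Other genes of the NK receptor system were counted from a list of 34 receptors and adaptors. Of its 20 Klr genes, which encode lectin-like receptors including the Ly49 family that binds MHC class I, 17 were listed in spleen, 13 of them below 0, with a median of -0.24. In bone marrow 15 were listed, 9 above 0, with a median of 0.21. No Klr gene of the list passed the DESeq2 test in either of the authors' deposited tables, and at an unadjusted p under 0.05 there was 1 in each, Klri2 in spleen and Klra1 in bone marrow (the second named after its value was seen). Over all genes, 3.02% in spleen and 8.85% in bone marrow had an unadjusted p under 0.05. Klri2, which encodes a receptor partner of KLRE1, was at -0.53 ± 0.201 in the authors' deposited table of spleen (unadjusted p = 0.00893) and at 0.21 ± 0.427 in that for bone marrow. Klrc1, the gene of the inhibitory receptor NKG2A that pairs with CD94, had -0.27 ± 0.146 in spleen and 0.11 ± 0.257 in bone marrow by the authors' deposited tables. Klra1 had -0.11 ± 0.379 in spleen and 1.01 ± 0.461 in bone marrow by the authors' deposited tables. Of the 15 Klr genes listed for both tissues, 13 had a lower value in spleen, against 52.5% of all genes. Many Klra and Klrb1 genes are near-copies of each other, which makes their single values uncertain, and among those with a mean of at least 20, 5 of 8 lay below 0 in spleen and likewise 5 of 8 in bone marrow.

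The adaptors that transmit the signals of these receptors are shared with myeloid cells. In spleen, Fcer1g, the common gamma chain of Fc receptors and NKp46, was at -0.08 ± 0.167 and Tyrobp, the gene of DAP12, at -0.04 ± 0.127 in the authors' deposited table. Fcer1g was lower in Cgas-/- than in dKO bone marrow, at -0.31 ± 0.0759 in the authors' deposited table (adjusted p = 0.0137 by DESeq2), where Tyrobp had -0.23 ± 0.0773 without passing (adjusted p = 0.208). Of the receptor and adaptor list, 0 of 31 genes passed in spleen under DESeq2, with 1 at an unadjusted p under 0.05, and Fcer1g was the 1 call among 29 in bone marrow, where 0.361% of all genes were called lower. With Benjamini-Yekutieli adjustment Fcer1g did not pass (adjusted p = 0.139). At an unadjusted p under 0.05, against 8.85% of all genes, the list held 5 genes in bone marrow, 2 above 0 and 3 below. The adaptor gene Sh2d1a, named after its value was seen and encoding the signalling protein SAP, was among those above 0, at 1.75 ± 0.764 in the authors' deposited table (unadjusted p = 0.0217, mean normalized count 8.16), and had 0.24 ± 0.224 in spleen. Monocyte markers lay above 0 for 7 of 10 genes in spleen (median 0.10, 0 called under DESeq2 and 0 with an unadjusted p under 0.05). In the bone marrow comparison 8 of 10 monocyte markers lay below 0, with a median of -0.32. The 2 calls among them were both lower, Ly6c2 (-0.33 ± 0.0794) and Csf1r (-0.37 ± 0.0988), in the authors' deposited table. Neither passed with Benjamini-Yekutieli adjustment (adjusted p = 0.117 for Ly6c2 and 0.361 for Csf1r). The part of monocytes in the value of Fcer1g was not tested.

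Genes of the killing machinery beyond the 10 gave 1 call. Of the 24 on the list, 20 were listed in spleen (13 below 0, median -0.02, 0 called under DESeq2 and 0 with an unadjusted p under 0.05) and 15 in bone marrow (10 below 0, median -0.11, 1 called lower and 3 lower at an unadjusted p under 0.05). Over all genes of bone marrow, 0.361% were called lower and 8.85% had an unadjusted p under 0.05 in either direction. The call was Ctsh, a cathepsin gene also expressed in myeloid cells, at -0.00169 ± 0.0615 in the authors' deposited table of spleen and at -0.33 ± 0.0875 in that for bone marrow (DESeq2 adjusted p = 0.0397, and 0.403 with Benjamini-Yekutieli adjustment). Ctsc, whose product activates granzymes by removing their propeptide, had 0.10 ± 0.0575 in spleen and -0.27 ± 0.134 in bone marrow (unadjusted p = 0.0450) by the authors' deposited tables. Stx11, a syntaxin gene of granule release, had -0.08 ± 0.108 in spleen and -0.18 ± 0.0841 in bone marrow (unadjusted p = 0.0351) by the authors' deposited tables. Serpinb9, an inhibitor of granzyme B, had the smallest p of the list in spleen, at -0.41 ± 0.223 (unadjusted p = 0.0631, authors' deposited table), and 0.17 ± 0.336 in bone marrow.

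Regulators and cytokine genes of the lineage showed no call under DESeq2 in either of the authors' deposited tables, where 0.133% of all genes passed in spleen and 0.534% in bone marrow. An unadjusted p under 0.05 was held by 3.02% of all genes in spleen and 8.85% in bone marrow. Of 15 regulators listed in each tissue, 9 lay below 0 in spleen (median -0.01) and 7 in bone marrow (median 0.02), with 1 gene at an unadjusted p under 0.05 in spleen and 2 in bone marrow. These were Prdm1, which encodes Blimp-1 (-0.42 ± 0.154, unadjusted p = 0.00578) in spleen, and Id2 (-0.20 ± 0.0855) and Ets1 (0.24 ± 0.104) in bone marrow, by the authors' deposited tables. Gata3 had 0.24 ± 0.135 in the authors' deposited table of spleen. Of the interleukin-15, interleukin-12 and interleukin-18 axis with effector cytokines, 12 of 19 lay below 0 in spleen (median -0.03) and 12 of 18 in bone marrow (median -0.08). At an unadjusted p under 0.05 this list held 0 genes in spleen and 1 in bone marrow, the chemokine receptor gene Cx3cr1 (-0.34 ± 0.137, authors' deposited table). Il15, the gene of the cytokine that keeps NK cells alive, was at 0.34 ± 0.241 in spleen and -0.07 ± 0.187 in bone marrow by the authors' deposited tables. Il18r1 (0.18 ± 0.137) and Ccl3 (0.46 ± 0.410 in spleen, -0.47 ± 0.288 in bone marrow) also did not pass by the authors' deposited tables.

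Markers of other cells in these suspensions were read beside the NK genes. Over all genes, DESeq2 called 0.133% in spleen and 0.534% in bone marrow, and 3.02% and 8.85% had an unadjusted p under 0.05. T cell markers in spleen lay above 0 for 22 of 24 genes, with a median of 0.10 and summed means of 12451 normalized counts, where the 10 NK and cytotoxic genes lay mostly below 0 and summed to 2200. None of the T cell markers passed under DESeq2 in the authors' deposited table (0 of 24), and 2 had an unadjusted p under 0.05, Cd3g (0.37 ± 0.150) and Trac (0.29 ± 0.135). In bone marrow 13 of 24 T cell markers lay above 0, with a median of 0.03 and no call under DESeq2 (0 of 24, with 1 at an unadjusted p under 0.05, Trbc2 at -0.57 ± 0.261, authors' deposited table). Erythroid markers lay below 0 for all 11 listed in spleen (median -0.69, 0 called under DESeq2 and 0 with an unadjusted p under 0.05). In bone marrow all 11 lay above 0 (median 0.64), and 8 had an unadjusted p under 0.05, against 4.19% of all genes higher. Hbb-bt was called there under DESeq2, at 0.84 ± 0.223 in the authors' deposited table (adjusted p = 0.376 with Benjamini-Yekutieli adjustment). The erythroid markers thus had a lower value in spleen than in bone marrow for 11 of 11 genes, as the 10 NK and cytotoxic genes did, with a median difference of -1.40 for erythroid and -0.35 for NK and cytotoxic genes. So did 5 of 5 innate lymphoid, 9 of 10 neutrophil, 7 of 9 mast cell and basophil and 8 of 12 plasmacytoid dendritic cell markers. Those 5 innate lymphoid genes were the ones listed for both tissues, of 12 on that list. They include Klrg1 (named after its values were seen, mean 7.29 in bone marrow), which was also counted among the Klr genes. The count was 9 of 24 for T cell, 4 of 10 for B cell and 1 of 10 for monocyte markers, against 52.5% of all genes. Neutrophil markers lay below 0 for 9 of 10 genes in each tissue (median -0.27 in spleen and -0.15 in bone marrow), and B cell markers above 0 for 7 of 10 in each (median 0.02 and 0.05). Plasmacytoid dendritic cell markers had medians of -0.11 in spleen and 0.05 in bone marrow, mast cell and basophil markers -0.09 and 0.14, and group 2 and group 3 innate lymphoid markers -0.09 and 0.20. Neutrophil, B cell, plasmacytoid dendritic, mast cell and innate lymphoid lists held 0 calls under DESeq2 in either deposited table. The plasmacytoid marker Tcf4 was at 0.32 ± 0.0875 in the authors' deposited table of bone marrow (adjusted p = 0.0534) and passed with a minimum mean of 20 (adjusted p = 0.0464) and with centring (adjusted p = 0.0478). At an unadjusted p under 0.05 these 5 lists held 1 gene in spleen (Mcpt8) and 6 in bone marrow (Ly6g, Siglech, Tcf4, Irf8, Gata2 and Il7r, of which Siglech was named after its value was seen). The part of these cell types in the values of the NK and cytotoxic genes was not tested. Some genes of the 13 lists lie within 10 Mb of Trex1 or Cgas. Without them 172 of 177 listed genes remained in bone marrow and 185 of 190 in spleen. The counts and medians of the lists were made with those genes included, and the part of linkage in them was not tested.

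**Figure D4:**
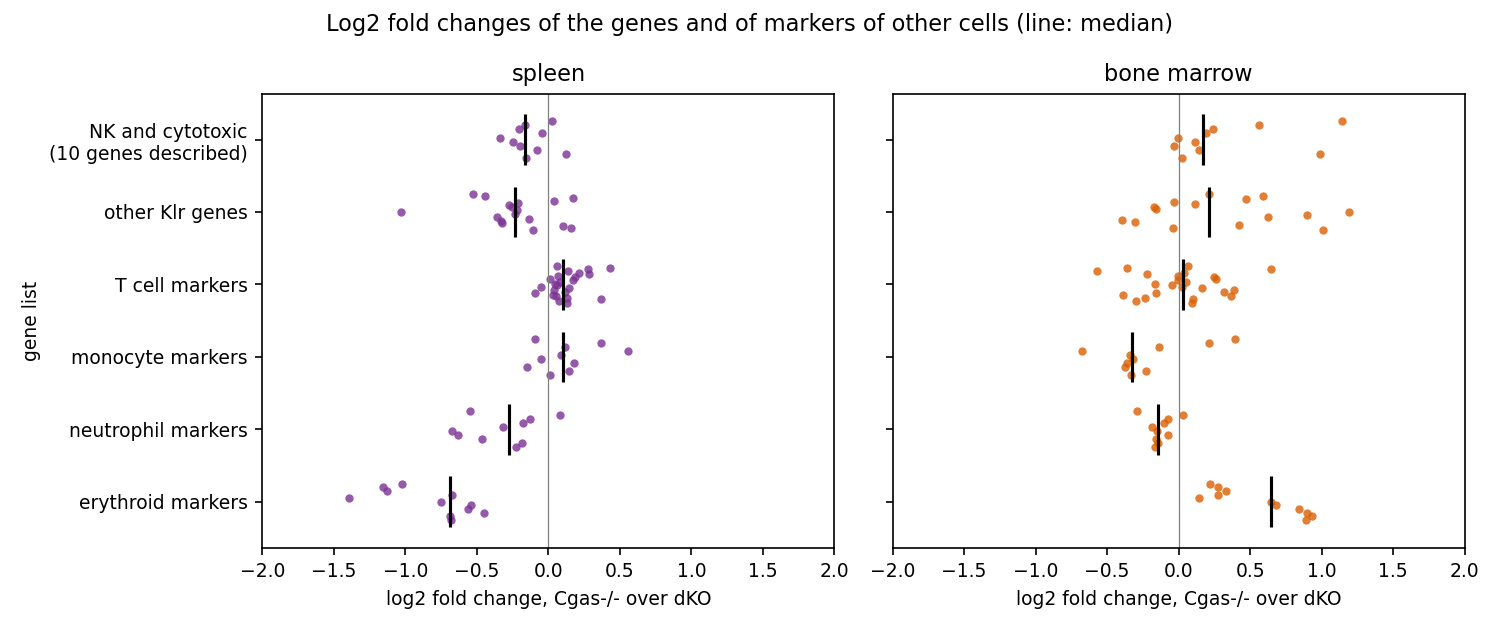
Log2 fold changes, Cgas-/- over dKO (horizontal axis), of the 10 NK and cytotoxic genes, the other Klr genes and the markers of 4 other cell types (rows) in spleen (left) and bone marrow (right), with a point per gene and a black line at the median. The NK and cytotoxic genes have medians of -0.16 in spleen and 0.17 in bone marrow, and the erythroid markers -0.69 and 0.64.

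The sequences before the starts of these genes were read because Eomes and T-bet, which 2 members encode, bind T-box sites, and RUNX factors also act in cytotoxic lymphocytes. RefSeq promoter entries (GRCm38.p6) matched 9 members, Klrd1 not among them, and the 250 bases before each RefSeq start were searched on both strands for 9 motifs. The RefSeq start is not always the GENCODE one: the whole Klrb1c window, the last 65 bases of that of Nkg7 and the last 3 of that of Prf1 lie inside the GENCODE gene, so the RUNX match of Klrb1c and the T-box match of Nkg7 are within those genes. The RUNX core TGTGGT was in the windows of 7 of 9 members (Gzma, Gzmb, Klrb1c, Klrk1, Ncr1, Nkg7 and Prf1) and in 15.9% of all 27025 genes. The T-box core AGGTGT was in 3 of 9 (Gzma, Nkg7 and Prf1) and in 13.6% of all genes. The longer T-box site AGGTGTGA, which contains that core, was in the window of Nkg7 (1 of 9) and of 1.30% of all genes. The shifted core GGTGTG (1 of 9, 18.3% of all genes) overlaps the longer T-box site. The others were GGAAGT for ETS factors (3 of 9, 22.2%), the interferon-stimulated response element (2 of 9, Eomes and Gzma, 3.46%), TTCNNNGAA for STAT factors (1 of 9, 8.13%), TTANNTAA for NFIL3 (0 of 9, 6.30%) and the E-box CAGCTG (1 of 9, 14.7%). A match is a description of letters and not a site of binding, and the motifs were chosen with the members known. Both granzyme windows are shown for their matches and that of Tbx21, the member with the smallest p in bone marrow, for having neither core. Capitals mark the T-box core and the RUNX core on either strand, and each sequence runs 5′ to 3′ on the strand of its gene, the minus strand in all 3 cases. Gzma (chr13:113100982-113101231) has the T-box core, written ACACCT, from 80 and the RUNX core, written ACCACA, from 50 bases before the start. Gzmb (chr14:56262335-56262584) has the RUNX core from 93 and from 34 bases before the RefSeq start at 56262334, which is 74 bases upstream of the GENCODE start. The window of Tbx21 is chr11:97115332-97115581.
Gzma: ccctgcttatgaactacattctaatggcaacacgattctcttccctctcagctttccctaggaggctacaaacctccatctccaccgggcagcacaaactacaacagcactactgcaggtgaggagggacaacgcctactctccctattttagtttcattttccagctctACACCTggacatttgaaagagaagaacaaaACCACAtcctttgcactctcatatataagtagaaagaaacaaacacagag
Gzmb: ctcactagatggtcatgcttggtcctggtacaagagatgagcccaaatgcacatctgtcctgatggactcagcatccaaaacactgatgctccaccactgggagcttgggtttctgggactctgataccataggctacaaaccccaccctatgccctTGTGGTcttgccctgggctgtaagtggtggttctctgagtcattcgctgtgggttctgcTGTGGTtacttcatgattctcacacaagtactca
Tbx21: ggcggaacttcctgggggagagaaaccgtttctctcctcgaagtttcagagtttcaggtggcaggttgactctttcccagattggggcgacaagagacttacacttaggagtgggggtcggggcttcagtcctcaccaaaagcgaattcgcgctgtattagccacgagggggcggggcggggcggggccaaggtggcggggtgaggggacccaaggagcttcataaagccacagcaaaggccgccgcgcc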

How the data were processed

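The 18 libraries of mouse spleen and bone marrow cells were QuantSeq forward libraries according to the labels' protocols, and their titles gave the groups. Per the submitters' processing notes, the authors used STAR 2.6.1, bcl2fastq 1.8.4, DESeq2 and Partek with build mm10; versions of the last pair, the counter, annotation and strand setting are not given in the sources used. The 2 deposited tables hold DESeq2 results, per the file headers. The signal column holds the authors' mean normalized count over libraries. The deposited log2 columns are the authors' DESeq2 fold change and its error. The Wald score and the ranking score are the authors' deposited values, as are the p-value and the adjusted p-value. Recomputing the Wald scores, p-values and Benjamini-Hochberg adjustment gave the deposited values.

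The deposited fold changes and adjusted p-values were used with a threshold of 0.05. Intervals (95%) are normal, from the deposited standard errors. Group means follow from the deposited mean and fold change for groups of equal size. The difference between tissues is the log2 fold change of spleen less that of bone marrow, divided by its standard error (root of the summed squares), two-sided, adjusted by Benjamini-Hochberg over 13777 genes matched by symbol (Mb21d1 read as Cgas). The members and the 13 lists were chosen with earlier results of these data known. The text names all members and, of each list, called genes and those among the 2 smallest p-values per tissue where a result turns on them; others are marked as named after their values were seen. Some genes within the rule are given in counts only. No set test and no test per library was run. Alternatives were a minimum mean of 20, Benjamini-Yekutieli adjustment, a threshold of 0.1, centring, and leaving out genes within 10 Mb of Trex1 or Cgas. Gene coordinates are from GENCODE M21 and promoters from RefSeq. The adjustment steps alone were tested on simulated normal noise at the deposited standard errors. Changes were set only in genes with a mean of at least 20 in both tissues. This leaves out Tbx21, Prf1, Ncr1 and Gzmb, so the simulation says nothing of their detection. Python 3.11.15, pandas 2.3.3, numpy 2.4.6, scipy 1.17.1 and matplotlib 3.10.9 were used.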

Additional observations from a re-analysis of the deposited data

How the results depend on the processing

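The count of NK and cytotoxic genes past the test was 0 in spleen, in bone marrow and for the difference between tissues under each of the 5 alternatives (a minimum mean normalized count of 20, Benjamini-Yekutieli adjustment, a threshold of 0.1, centring on the median gene, and leaving out genes within 10 Mb of Trex1 or Cgas, which removes Eomes). Over these settings the members' adjusted p-values ran from 0.999946 to 1 in spleen, from 0.471 to 1 in bone marrow and from 0.985 to 1 for the difference. Centring turned the sign of 0 of the 20 fold changes. The median over the members stayed between -0.17 and -0.14 in spleen and between 0.08 and 0.17 in bone marrow, with the precision-weighted mean counted among its alternatives. Of the 177 listed genes of the other lists in bone marrow, 5 were called, against 0.534% of all genes. That count was 0 with Benjamini-Yekutieli adjustment, 8 with a threshold of 0.1 and 5 without the genes near Trex1 or Cgas (of 172). It was 6 with a minimum mean of 20 (of 159) and 6 with centring, the sixth being Tcf4. The share of all genes called under each alternative was not worked out, so these counts have no background beside them. In spleen 0 of 190 were called as deposited and 0 under each alternative. No paired analysis was possible because the files used hold no values per library, and for the same reason leaving out a replicate was not run. At their standard errors the members would have needed 1.41-fold to 2.26-fold differences to pass in spleen and 1.30-fold to 6.48-fold in bone marrow. Library depth is unknown, and its part in these limits was not tested.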

Other observations

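Ligands of the NK receptors were read separately, since NK cells respond to them on other cells. In spleen 8 of 12 listed ligand genes lay above 0 (median 0.11), and in bone marrow 6 of 10 lay below 0 (median -0.11), with 0 calls under DESeq2 in either of the authors' deposited tables and 0 genes in spleen and 2 in bone marrow (H2-D1 and B2m) at an unadjusted p under 0.05. That unadjusted threshold was passed by 3.02% of all genes in spleen and 8.85% in bone marrow. B2m, the light chain of all MHC class I molecules, had 0.15 ± 0.0842 in spleen and -0.33 ± 0.0979 in bone marrow in the authors' deposited tables (DESeq2 adjusted p = 0.0982 in bone marrow). The difference of B2m, spleen minus bone marrow, was 0.48 ± 0.129 with an unadjusted p of 1.91e-04 and did not pass (adjusted p = 0.146, z test with Benjamini-Hochberg adjustment). H2-D1 had 0.03 ± 0.0618 in spleen and -0.15 ± 0.0750 in bone marrow in the authors' deposited tables. Cd48, which encodes the ligand of the NK receptor 2B4, had 0.19 ± 0.109 in spleen and -0.09 ± 0.137 in bone marrow in the authors' deposited tables. Some genes of the NKG2D ligands are short of tags or close paralogs. Ulbp1, named after its values were seen, had mean normalized counts of 40.7 in spleen and 167 in bone marrow. Its log2 fold change was -0.04 ± 0.260 in spleen and 0.14 ± 0.196 in bone marrow in the authors' deposited tables.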
